A study of Saccharomyces cerevisiae with 36 samples.

Results

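The mitochondrial genome genes of Saccharomyces cerevisiae were taken as every gene of the deposited tables placed on chrM, whose identifiers begin with Q0. There were 28 of them among 6717 genes in all. Of the 28, 19 are annotated in the RefSeq R64 assembly, and for these 19 the exon boundaries of the deposited tables and of R64 were equal. The other 9 are old reading frames that R64 does not list. All the defining genes of the yeast mitochondrial genome were among the members: COX1 (Q0045), COX2 (Q0250) and COX3 (Q0275), which encode subunits of cytochrome c oxidase (complex IV), COB (Q0105), which encodes cytochrome b of complex III, ATP6 (Q0085), ATP8 (Q0080) and OLI1 (Q0130), which encode subunits of the membrane part of ATP synthase, and VAR1 (Q0140), which encodes a protein of the mitochondrial ribosome.

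The mRNA of a dominant wine strain (strain 12) and of a non-dominant strain (strain 11) was sequenced from mixed cultures, in which both grew together, and from single cultures, in which each grew alone, in natural Nebbiolo must. Both strains carried an integrated gene for a fluorescent protein (GFP or eSapphire, driven by the GPD promoter) with the KANMX resistance marker, and in every sample the cells were separated by flow cytometry before RNA extraction. In all, 36 libraries fell into 12 groups of 3 by strain, culture and hour of sampling: strain 12 mixed, strain 12 single, strain 11 mixed and strain 11 single, at 12, 20 and 30 h, which the study placed in early exponential growth, in mid-exponential growth and at the start of the stationary phase. By the study's methods the fermentations were run in triplicate, also with the markers exchanged between the strains, and aliquots were drawn at each time. The labels give neither the marker nor the fermentation of a library, so p-values measure the spread between these libraries, and libraries of different times may come from 1 fermentation. The deposited tables held 35400 to 530376 reads on genes per library.

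Yeast mitochondrial DNA is transcribed by its own RNA polymerase into long precursors, from which the messengers are cut and, for COX1 and COB, spliced. Several introns of COX1 and COB carry reading frames of their own, translated in frame with the upstream exons, whose products help to splice the intron they come from (maturases) or let it move between genomes (reverse transcriptases and endonucleases). All other proteins of respiration and of mitochondrial gene expression are made from nuclear genes. In RNA from many cells, a smaller number of cells holding mitochondrial DNA and less mitochondrial RNA per cell cannot be told apart.

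The intron frames decide how the values are read, because each of them was counted together with the COX1 or COB exons that precede it. COX1 (chrM:13818-26701, 8 exons) shares its first exon, chrM:13818-13986, with AI1 (Q0050), AI2 (Q0055), AI3 (Q0060), AI4 (Q0065) and AI5_ALPHA (Q0070), and COB (chrM:36540-43647, 6 exons) shares its own with BI2 (Q0110), BI3 (Q0115) and BI4 (Q0120). The 59 exons listed for the 28 genes are 43 distinct segments in 33 clusters of overlapping segments, and a read on a shared exon entered every gene that holds it. Summed over genes, the mitochondrial reads exceeded the sum with each segment counted once by 1.48 to 2.59-fold (median 1.85) over the 36 libraries. That sum takes each cluster once per library, at the segment with the most reads. Reads counted only on other segments of a cluster are left out of it. Reads of a gene's own segment are those on its segments that overlap other genes by less than 10% of their length or, where it has none, on the segments that it alone lists. The AI1 segment still holds COX1 exon 1, and the AI2 segment, chrM:16435-18830, still holds the 36 bases of COX1 exon 2. For AI4, AI5_ALPHA and BI4 the segment used overlaps other genes over 33.4, 21.5 and 17.7% of its length, so it does not set the frame apart from COX1 or COB.

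The segments that the AI2 result rests on are shown here with exon bases in capitals. They are reference sequence (RefSeq, R64, plus strand), and the sequence of the wine strains may differ. The first spans chrM:16435-16510, where exon 2 ends and intron aI2 (2483 bases) begins, the second spans chrM:18914-18991, where that intron ends, and the joined one is what a spliced COX1 messenger holds, with exon 2 in capitals and exon 3 in lower case. A read of 75 bases is longer than exon 2 and exon 3 (36 and 38 bases) joined.
COX1 exon 2 and the first 40 bases of intron aI2: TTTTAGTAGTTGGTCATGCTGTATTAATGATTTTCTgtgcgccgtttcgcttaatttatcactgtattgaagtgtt
last 40 bases of intron aI2 and COX1 exon 3: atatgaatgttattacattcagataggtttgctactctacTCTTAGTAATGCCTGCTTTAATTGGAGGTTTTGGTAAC
COX1 exon 2 joined to exon 3: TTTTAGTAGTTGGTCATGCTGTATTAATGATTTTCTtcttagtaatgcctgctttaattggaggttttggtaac

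The second place where a result turns on overlapping genes is the end of COX2, chrM:74454-74585. The 19 bases that COX2 (chrM:73758-74513) shares with Q0255 (chrM:74495-75984), a reading frame annotated as protein-coding, are in capitals.
end of COX2 and start of Q0255: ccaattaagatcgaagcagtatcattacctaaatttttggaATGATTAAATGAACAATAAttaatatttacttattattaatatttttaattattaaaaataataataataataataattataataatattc
To show how the base composition of the members varies, the first 120 coding bases of a member with hardly any reads, VAR1 (chrM:48901-49020, GC 6.67%), are set beside those of a member with many, COX3 (chrM:79213-79332, GC 31.7%), with the start codon in capitals.
VAR1, first 120 coding bases: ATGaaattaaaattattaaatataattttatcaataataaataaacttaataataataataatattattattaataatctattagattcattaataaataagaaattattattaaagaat
COX3, first 120 coding bases: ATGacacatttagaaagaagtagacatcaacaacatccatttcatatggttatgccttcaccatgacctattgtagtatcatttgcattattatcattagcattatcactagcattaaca

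Of the 28 members, 7 had no read in any library: Q0032, Q0092, Q0142, Q0143, Q0144, SCEI (Q0160), which encodes the homing endonuclease I-SceI, and Q0297. With 5832879 reads on exons in all, a count of 0 allows up to 0.514 reads per M reads, counting error only. ATP8 and VAR1 had 2 reads each over the 36 libraries, so that 2 of the defining genes of the genome were at or near 0 in every group. Q0010 had 11 reads and Q0017 had 10, all of them in single cultures of strain 11, and Q0182 had 40. Replicate 2 of the strain 11 single cultures at 12 h held 7 reads of Q0010 and 7 of Q0017. These frames overlap (chrM:3952-4338 and chrM:4254-4415) and may share reads. The GC content of the coding sequence was 10.4% for VAR1 and 19% for ATP8, while the 16 annotated members with at least 100 reads ranged between 15.4 and 33.3%. The part of base composition in these low counts was not tested. The remaining members with a mean of at least 5 reads per library were 15, and 16 members (these and AI5_BETA, Q0075) entered the test.

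The mitochondrial share of all reads on genes was low and varied widely between the libraries of a group. In mixed cultures of strain 12 it was 0.403, 1.27 and 0.138% in the 3 libraries at 12 h, then 1.34, 0.301 and 0.635% at 20 h, and lastly 0.319, 0.525 and 0.737% at 30 h. In single cultures of strain 12 it was 0.512, 0.872 and 1.83% at 12 h, then 0.302, 2.0 and 0.481% at 20 h, and lastly 0.606, 0.380 and 0.660% at 30 h. The mixed and the single cultures of strain 12 overlapped at every time.

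Strain 11 differed more between its cultures. Its mixed cultures held 0.640, 1.15 and 0.644% at 12 h, then 0.597, 0.458 and 0.487% at 20 h, and lastly 0.374, 0.170 and 0.562% at 30 h. Its single cultures held 1.24, 3.84 and 1.27% at 12 h, then 1.55, 2.43 and 0.449% at 20 h, and lastly 2.59, 2.69 and 0.755% at 30 h. At 12 and at 30 h all 3 mixed libraries lay below all 3 single ones, whereas at 20 h single replicate 3 lay below every mixed library.

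**Figure D1:**
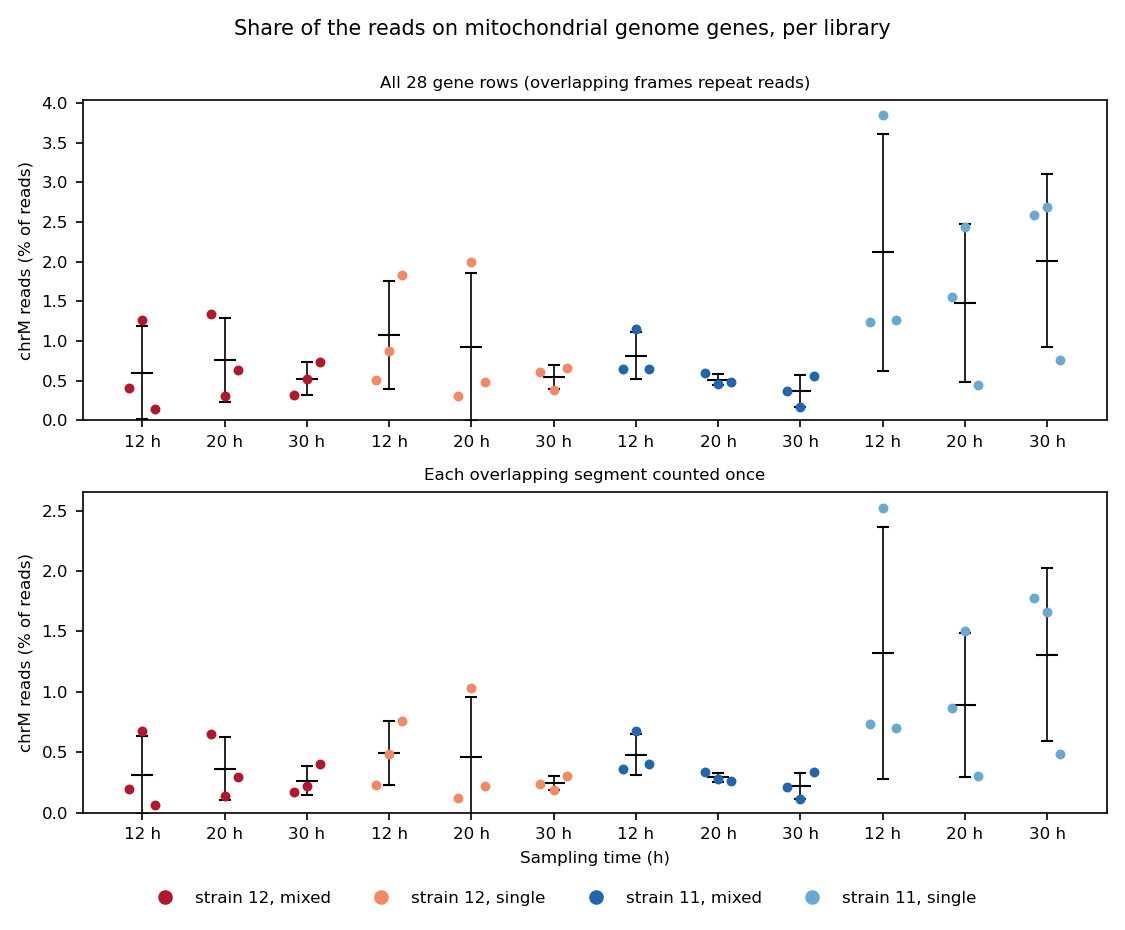
Mitochondrial reads as a percentage of reads, per library (points) with group means and SD (black), against sampling time, from the gene tables (upper panel) and with each mitochondrial segment counted once (lower panel). Single cultures of strain 11 reach 3.84% on gene rows and 2.52% on segments, the highest of the 36 libraries, and the mixed cultures of strain 11 lie below them at 12 and 30 h.

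As group means ± SD over 3 libraries, the share on gene rows was 0.812 ± 0.295, 0.514 ± 0.0734 and 0.369 ± 0.196% in mixed cultures of strain 11 at 12, 20 and 30 h, against 2.12 ± 1.49, 1.48 ± 0.993 and 2.01 ± 1.09% in single cultures. For strain 12 it was 0.602 ± 0.590, 0.758 ± 0.529 and 0.527 ± 0.209% in mixed cultures, against 1.07 ± 0.682, 0.928 ± 0.933 and 0.549 ± 0.148% in single ones. With each segment counted once the means were lower but ordered alike for strain 11: 0.479, 0.291 and 0.218% in mixed against 1.32, 0.890 and 1.31% in single cultures. The lowest library on that scale, strain 12 mixed replicate 3 at 12 h, had 0.0595% (95% Wilson interval 0.0505 to 0.0701), and the highest, strain 11 single replicate 2 at 12 h, had 2.52% (2.47 to 2.58). Intervals of this kind cover counting error only.

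Most mitochondrial reads came from a single locus. With each segment counted once, the COX1 locus held 61.8 to 90.9% of the mitochondrial reads of a library (median 82.3%), the COB locus 3.21 to 23.3% (median 7.89%), and all other loci together 5.30 to 24.5% (median 11.2%). Over 36 libraries the reads on gene rows were 13911 for AI2, 10328 for COX1, 9372 for AI1 and 2791 for COB, against 1357 for ATP6, 972 for COX3, 390 each for COX2 and OLI1, 218 for Q0255 and 175 for AI5_BETA.

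Per kilobase, as RPKM (reads per M reads on exons and per kilobase of gene), COX1 had the highest median of the 36 libraries, 887 (range 177 to 3071). The frames of its introns followed: AI2 448 (60.1 to 5223), AI5_ALPHA 402, AI4 394, AI3 359 and AI1 341 RPKM. OLI1, the short gene of the ATP synthase ring subunit, had 272 (0 to 849), COB 217 (28.9 to 1865), COX3 160 (15.4 to 1028), ATP6 146 (0 to 1399) and COX2 86.5 RPKM (0 to 570). Lower still were the COB intron frames, with BI4 at 111, BI2 at 61.2 and BI3 at 56.1 RPKM, then AI5_BETA at 12.0 and Q0255 at 5.44. Each range spanned more than the gap to the next gene in the order. These are ranges between libraries, and the genes were not compared within libraries here.

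COX1 averaged 759 ± 730, 979 ± 629 and 874 ± 374 RPKM in mixed and 1370 ± 886, 1320 ± 1273 and 918 ± 264 RPKM in single cultures of strain 12 at 12, 20 and 30 h (SD, n = 3 each). In strain 11 it averaged 826 ± 320, 538 ± 64.3 and 446 ± 251 RPKM in mixed and 1868 ± 1043, 1584 ± 865 and 2023 ± 958 RPKM in single cultures. By mean, the 3 single cultures of strain 11 were therefore the highest of the 12 groups and its mixed cultures at 20 and 30 h the lowest. Among the 7 groups between them neighbouring means differed by less than their SD. At the edges of this order, 1584 ± 865 beside 1370 ± 886 and 759 ± 730 beside 538 ± 64.3 RPKM, an SD also exceeded the gap.

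**Figure D2:**
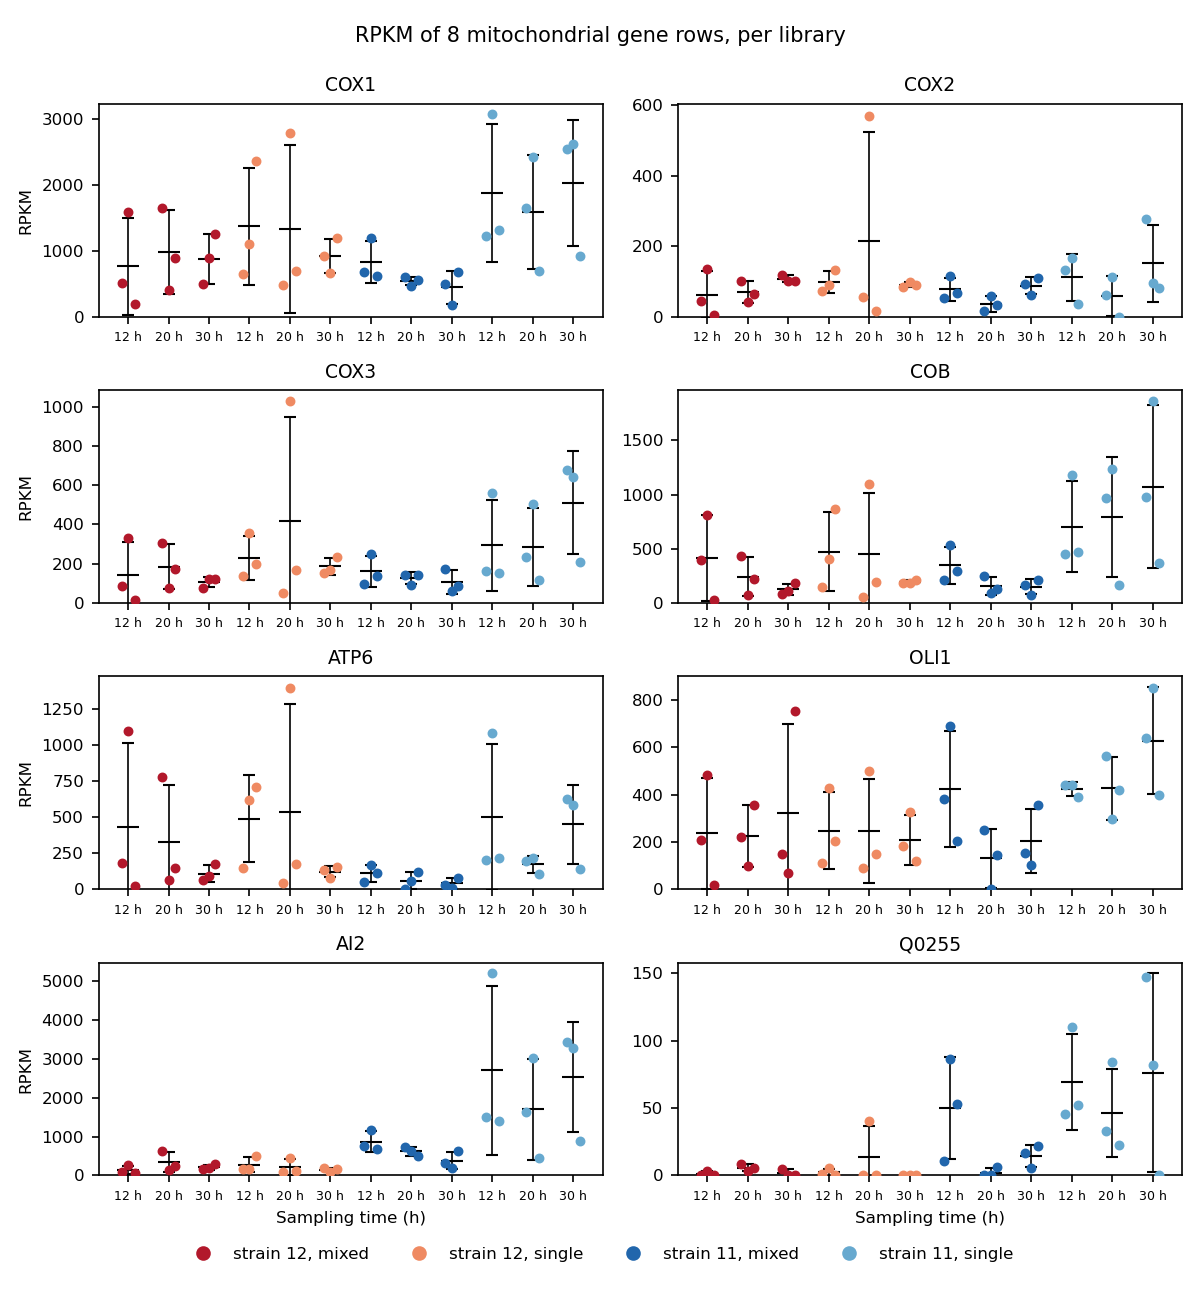
RPKM of 8 mitochondrial gene rows per library (points) with group means and SD (black), against sampling time in h. AI2 reaches 5223 RPKM in single cultures of strain 11 and at most 642 RPKM in strain 12.

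In raw reads, the AI1 row exceeded the COX1 exon it contains in all 4 sets, and the AI2 row did so most in strain 11. These rows are far longer than the exons, 2505 against 169 bases for AI1 and 2396 against 36 for AI2. Over the 9 libraries of a strain and culture, the AI1 row had 3.69 reads per read of COX1 exon 1 in strain 12 mixed, 3.38 in strain 12 single, 3.86 in strain 11 mixed and 4.07 in strain 11 single cultures. AI1 encodes a reverse transcriptase of a mobile group II intron, required for splicing of the COX1 precursor, and its ratio lay within this narrow range in all 4 sets. The AI2 row, of the same kind, had 2.73 reads per read of COX1 exon 2 in strain 12 mixed and 0.707 in strain 12 single, against 20.9 in strain 11 mixed and 32 in strain 11 single cultures. For AI3, AI4, AI5_ALPHA, BI2, BI3 and BI4 the ratio to the exon at the start of the segment lay between 0.271 (BI3, strain 12 mixed) and 1.33 (AI4, strain 11 single). A ratio below 1 can occur although the frame contains the exon, which shows that some reads counted on the exon of COX1 or COB were not counted on the frame. Exons shorter than a read are not comparable per kilobase, so these ratios are given as reads and are not scaled by length. Per kilobase the AI1 row lay below exon 1, which is longer than a read, in all 4 sets. It had 811, 682, 491 and 1757 reads against 3254, 2988, 1888 and 6396, in the order of sets above. For AI2 the exon is shorter than a read, so the values per kilobase do not compare the row with its exon. They were 214 against 5222 in strain 12 mixed and 39.2 against 3694 in strain 12 single cultures. In strain 11 they were 819 against 2611 in mixed and 3583 against 7444 in single cultures.

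**Figure D3:**
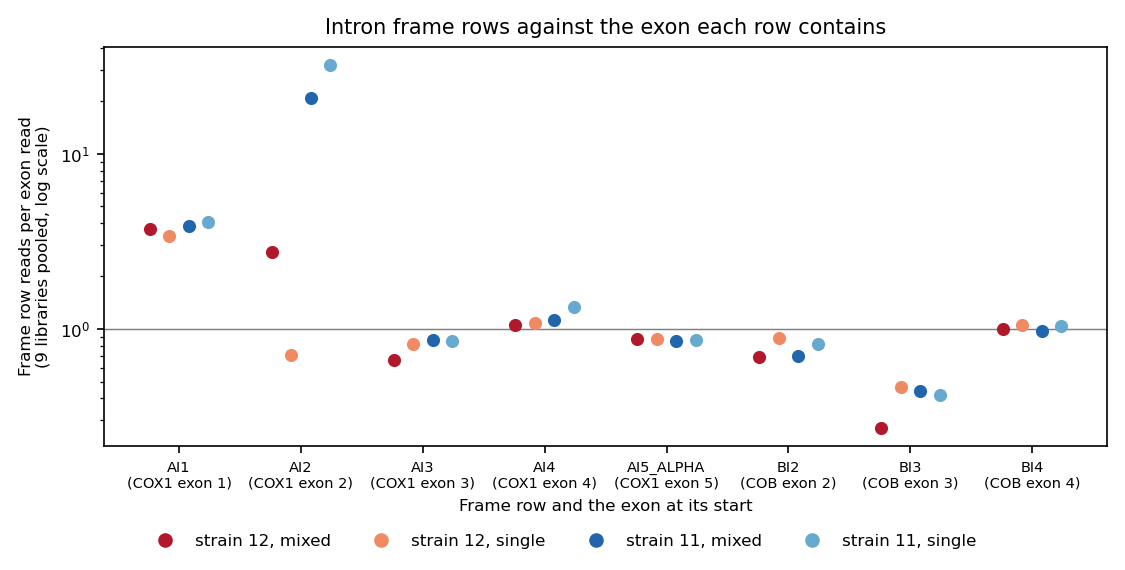
Reads of each intron frame segment per read of the exon at its start, pooled over the 9 libraries of each strain and culture (log scale). The ratios are not scaled by length, and the segments are longer than the exons. AI2 is at 20.9 and 32 in strain 11 and at 2.73 and 0.707 in strain 12, whereas AI1 is between 3.38 and 4.07 in all 4.

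For the comparison of mixed with single cultures, which asks how each strain responds to the presence of the other, the changes were found in the non-dominant strain. In strain 11 all 16 tested members were lower in mixed than in single culture at each of the 3 times, with median log2 fold changes of -1.37 at 12 h, -1.61 at 20 h and -2.53 at 30 h, while the medians over all 3670 genes tested were -0.05, -0.02 and -0.02. By edgeR's quasi-likelihood test with an adjusted p of at most 0.05 over all genes tested, 2 of 16 members fell at 12 h (3.35% of all genes did), 2 fell at 20 h (1.88%) and 11 fell at 30 h (1.36%). None of the 16 rose at any of these times. The libraries of the groups did not overlap, with mixed below single, for 10 members at 12 h, 3 at 20 h and 14 at 30 h, against 15.4, 10.2 and 8.72% of all genes. Because frames share exons with COX1 or COB, the members are not independent of each other. Reads on transcripts that mark each strain are given further below. The part of cells or RNA of strain 12 in the strain 11 mixed libraries in this fall was not tested.

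COX1, the core subunit of cytochrome c oxidase, had 775, 277 and 1037 CPM (counts per M reads, scaled with TMM factors) in mixed cultures of strain 11 at 30 h, against 4084, 4420 and 1567 CPM in single cultures. Every mixed library was below every single one. The log2 fold change was -2.29 ± 0.55 (SE) with an edgeR adjusted p of 0.00857, and at 12 and 20 h it was -1.31 (0.114) and -1.66 (0.0611). COX3, another core subunit, had 139, 46.2 and 69.1 CPM in mixed and 554, 553 and 180 CPM in single cultures at 30 h, without overlap, a log2 fold change of -2.43 ± 0.68 (edgeR adjusted p = 0.0271). COX2, the subunit that takes the electrons from cytochrome c, had 69.4, 46.2 and 79.0 CPM in mixed and 209, 76.7 and 65.3 CPM in single cultures, and its libraries overlapped (-0.86 ± 0.72, edgeR adjusted p = 0.581).

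COB, cytochrome b, fell in strain 11 at both later times. At 20 h it had 289, 104 and 146 CPM in mixed and 1227, 1507 and 204 CPM in single cultures, with a log2 fold change of -2.43 ± 0.73 (edgeR adjusted p = 0.0346), although single replicate 3 lay among the mixed libraries. At 30 h the values were 185, 84.6 and 237 CPM in mixed and 1132, 2279 and 457 CPM in single cultures, which did not overlap, with a log2 fold change of -2.99 ± 0.72 (edgeR adjusted p = 0.00792). BI4, whose product is a maturase for splicing of the COB messenger, followed with log2 fold changes of -2.36 ± 0.73 at 20 h, when 1 single library again lay within the mixed range, and -3.03 ± 0.73 at 30 h (edgeR adjusted p = 0.0448 and 0.00773). Its reads are largely those of the COB exons it contains. The last segment of BI4 begins with COB exon 4 and had 165 reads in strain 11 mixed cultures, where exon 4 alone had 170, and 623 reads in strain 11 single cultures, where exon 4 alone had 597. BI3 also fell at 30 h (-2.62 ± 0.76, edgeR adjusted p = 0.0339), whereas BI2 was at -2.52 ± 0.78 with an adjusted p of 0.0502.

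Among the ATP synthase genes, ATP6 had the largest fold change of the 11 members called at 30 h. At 12 h it had 37.7, 127 and 83.2 CPM in mixed cultures of strain 11, against 164, 887 and 185 CPM in single cultures (-2.34 ± 0.77, edgeR adjusted p = 0.0442). At 30 h it had 23.1, 7.69 and 59.3 CPM in mixed and 492, 483 and 114 CPM in single cultures (-3.67 ± 1.04, edgeR adjusted p = 0.0293). The groups did not overlap at either time, but the counts behind the 30 h values were small, 2, 1 and 6 reads in mixed and 40, 63 and 7 reads in single cultures. OLI1 had 34.7, 23.1 and 79.0 CPM in mixed and 148, 207 and 97.9 CPM in single cultures at 30 h, also without overlap, and did not pass the test (-1.79 ± 0.70, edgeR adjusted p = 0.149).

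The frame with the smallest adjusted p was AI2. It had 1875, 2957 and 1656 CPM in mixed cultures of strain 11 at 12 h, against 4037, 14024 and 3905 CPM in single cultures (-1.76 ± 0.53, edgeR adjusted p = 0.0246). At 30 h it had 844, 485 and 1551 CPM in mixed and 8869, 8940 and 2448 CPM in single cultures (-2.82 ± 0.56, edgeR adjusted p = 0.000837). Mixed and single libraries did not overlap at either time. AI1, AI3, AI4 and AI5_ALPHA also fell at 30 h, with log2 fold changes of -2.55, -2.15, -2.41 and -2.43 and edgeR adjusted p-values between 0.00612 and 0.0256. Members that did not pass at 30 h, besides COX2, OLI1 and BI2, were AI5_BETA (-3.01, edgeR adjusted p = 0.0733) and Q0255 (-2.54, edgeR adjusted p = 0.0925).

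How many members passed in strain 11 depended on individual libraries. At 30 h the count was 1 (AI2, -2.49, edgeR adjusted p = 0.0359) without mixed replicate 2, which had the lowest mitochondrial share of the 3, 2 (AI1 and AI2) without single replicate 2, 7 without single replicate 1 and 13 without single replicate 3. At 12 h it was 0 without mixed replicate 1, mixed replicate 3 or single replicate 2, 1 without mixed replicate 2, and 3 without single replicate 1 or single replicate 3. At 20 h it was 0 without any one of the 3 mixed libraries or of single replicates 1 and 2, and 4 without single replicate 3. Whichever library was left out, 15 or 16 of the 16 members kept a log2 fold change below 0. DESeq2 called 0, 0 and 8 members at 12, 20 and 30 h (9.92, 5.75 and 4.33% of all genes in either direction), and edgeR on own segments called 3, 2 and 9 (8.72, 5.18 and 3.9%), of which 2, 0 and 9 were also called on gene rows. On own segments the calls of COB and BI4 at 20 h (edgeR adjusted p = 0.137 and 0.0554) and of AI3 and BI3 at 30 h were lost.

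In strain 12 no member passed the test at 12, 20 or 30 h (0 of 16 by edgeR's quasi-likelihood test at each time), against 2.59, 1.28 and 0.218% of all genes, and DESeq2 also called 0. At an unadjusted p under 0.05 there were 2, 0 and 0 members, against 564, 504 and 281 of all 3670 genes. The median log2 fold changes, mixed over single, were -0.71, -0.31 and -0.28, and 14, 12 and 11 of the 16 were below 0. At 20 h that direction rested on individual libraries, since 0 of 16 were below 0 without single replicate 2 (2.0% mitochondrial reads) and 6 without mixed replicate 2. At 30 h 7 of 16 were below 0 without mixed replicate 1. COX1 had 799, 1421 and 2019 CPM in mixed and 1529, 1127 and 1888 CPM in single cultures of strain 12 at 30 h, which overlapped (-0.13, edgeR adjusted p = 0.966). Without mixed replicate 2 at 12 h, a library with 1.27% mitochondrial reads beside 0.403 and 0.138% in the other two, 4 members passed at that time.

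**Figure D4:**
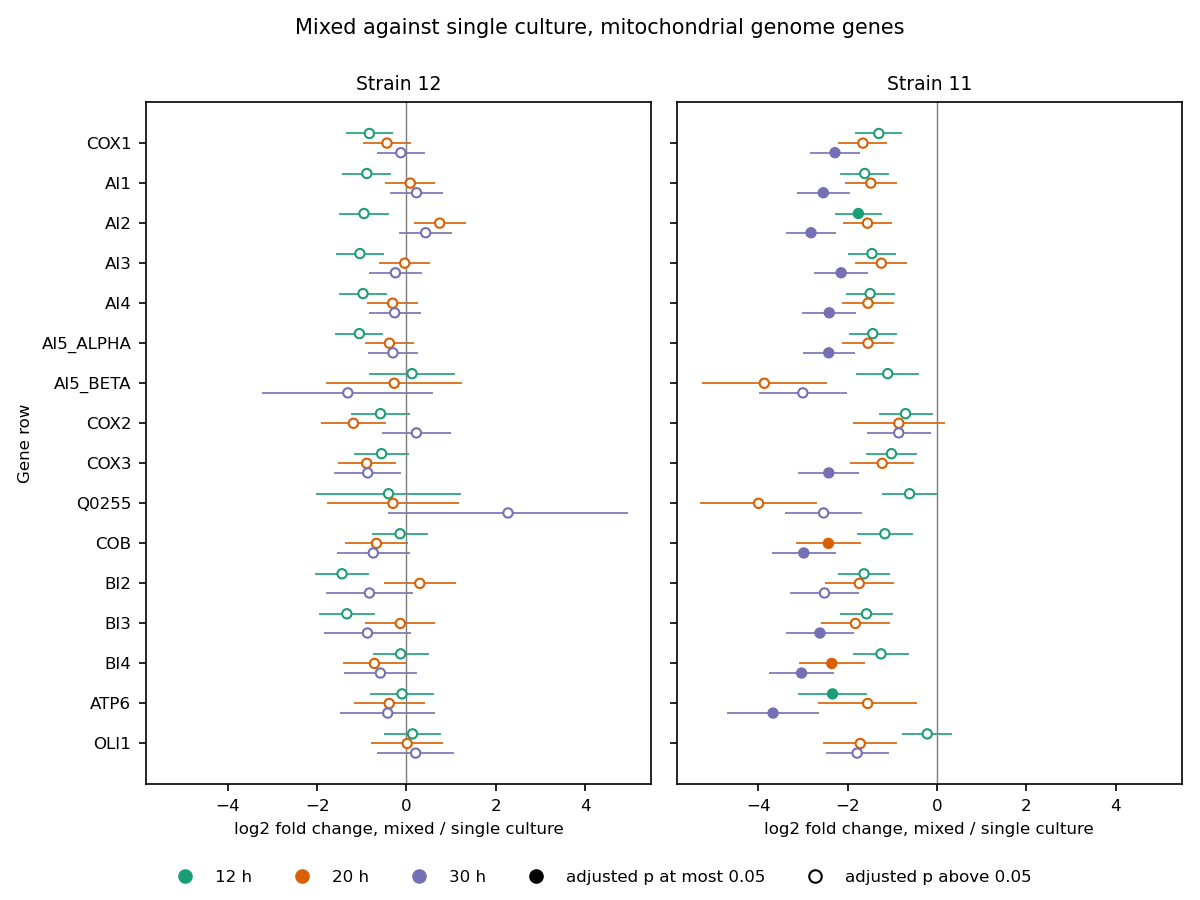
Log2 fold change of each tested member, mixed over single culture, in strain 12 and strain 11 at 12, 20 and 30 h; bars are standard errors and filled symbols have an edgeR adjusted p of at most 0.05. All 16 members lie below 0 in strain 11 at each time, with medians of -1.37, -1.61 and -2.53, and no symbol is filled in strain 12.

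A call in strain 11 and none in strain 12 does not show that the responses differ, so the difference itself was tested. The interaction, the response of strain 12 minus that of strain 11, was positive for 16, 15 and 16 of the 16 members at 12, 20 and 30 h, with medians of 0.47, 1.61 and 2.14 on the log2 scale. The direction at 12 h was not kept, as 14 of 16 members lay below 0 without strain 12 mixed replicate 2, 11 without strain 11 single replicate 2, and 11 and 12 with limma on log2 RPKM (pseudocount 1 and 0.1). No member passed (0 of 16 by edgeR at each time, with 1.17, 0.0817 and 0.0272% of all genes passing), DESeq2 called 0 as well, and 1, 1 and 9 members had an unadjusted p under 0.05. Of all 3670 genes, 370, 273 and 309 had such a p. The gene row of AI2 at 30 h had an interaction of 3.25 with an edgeR adjusted p of 0.113. On its own segment, where 0.0545% of all genes passed, AI2 had an interaction of 5.01 ± 0.95 (edgeR adjusted p = 0.00370). The strain 12 single libraries held only 6, 3 and 5 reads there, beside 9, 3 and 9 on COX1 exon 2, which the segment holds.

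Between the strains, AI2 was the member that set strain 12 apart from strain 11. In single cultures at 30 h the gene row had 535, 258 and 394 CPM in strain 12, against 8869, 8940 and 2448 CPM in strain 11, with a log2 fold change of -4.07 (edgeR adjusted p = 9.1e-06). It was lower in strain 12 also in single cultures at 12 h (410, 476 and 1464 CPM in strain 12 against 4037, 14024 and 3905 CPM in strain 11; -3.24, edgeR adjusted p = 0.000152). In single cultures at 20 h the values were 266, 1156 and 308 CPM in strain 12 and 4584, 8236 and 1187 CPM in strain 11 (-3.15, edgeR adjusted p = 0.00193). Strain 12 lay below strain 11 in every library at each of these times. In mixed cultures at 12 h AI2 had 287, 736 and 174 CPM in strain 12 and 1875, 2957 and 1656 CPM in strain 11, again without overlap (-2.42 ± 0.56, edgeR adjusted p = 0.00353).

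These calls stood among few others on the mitochondrial genome. In single cultures 2, 1 and 2 of the 16 members were lower in strain 12 at 12, 20 and 30 h, against 0.381, 0.3 and 0.354% of all genes, and in mixed cultures 2 were at 12 h, against 3.35%. At 20 and 30 h in mixed cultures edgeR called 0 of 16 (0.191 and 0.899% of all genes in either direction), with 1 and 0 members at an unadjusted p under 0.05 and 0 by DESeq2. Of all 3670 genes, 382 and 456 had such an unadjusted p. The call of AI2 in mixed cultures at 12 h was lost without strain 12 mixed replicate 3 (edgeR adjusted p = 0.0515). The call in single cultures at 20 h was lost without strain 12 single replicate 1 (0.0622), strain 12 single replicate 3 (0.0505) or strain 11 single replicate 2 (0.0563).

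The reads of the AI2 row lay on its own segment for 513 of 1107 in strain 12 mixed and 94 of 665 in strain 12 single, against 1962 of 2314 in strain 11 mixed and 8586 of 9825 in strain 11 single cultures. Per library, strain 12 mixed cultures had 12, 38 and 13 segment reads (12 h), then 286, 44 and 42 (20 h) and 36, 19 and 23 (30 h). Strain 12 single cultures had 18, 8 and 28 (12 h), then 4, 16 and 6 (20 h) and 6, 3 and 5 (30 h). Strain 11 had far more, with 56 to 668 reads per library in mixed and 63 to 3502 in single cultures. On this segment the log2 fold change, strain 12 over strain 11, was -6.15, -4.76 and -6.62 in single cultures at 12, 20 and 30 h (edgeR adjusted p = 5.69e-10, 2.83e-06 and 3.09e-09), and -3.96, -1.54 and -1.61 in mixed cultures (5.21e-06, 0.232 and 0.199). In that fit 1.04, 0.572 and 0.572% of all genes passed in either direction in single and 5.26, 0.191 and 0.954% in mixed cultures. The AI1 row, next to it in the same precursor, was at -0.66, -0.50 and -1.82 in single and at 0.05, 1.04 and 0.95 in mixed cultures in that fit, and did not pass.

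Set against COX1 exon 1, which both frames share with COX1, AI2 separated the strains without regard to the total level. Strain 12 mixed libraries had 0.384 to 0.619 reads of the AI2 segment per exon 1 read (12 h), 1.13 to 1.14 (20 h) and 0.413 to 1.71 (30 h). Strain 12 single libraries had 0.118 to 0.186, 0.235 to 0.667 and 0.154 to 0.231. Strain 11 mixed libraries had 5.84 to 6.89, 3.72 to 7.75 and 4.07 to 8.0, and strain 11 single libraries 4.74 to 9.59, 6.18 to 10.5 and 8.18 to 12.3. No library of strain 12 reached the lowest library of strain 11. Pooled over times, the ratio was 0.933 in strain 12 mixed (513 over 550 reads), 0.186 in strain 12 single (94 over 505), 6.15 in strain 11 mixed (1962 over 319) and 7.94 in strain 11 single cultures (8586 over 1081). The AI1 row had 2.03 to 6.33 reads per exon 1 read in the 36 libraries.

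**Figure D5:**
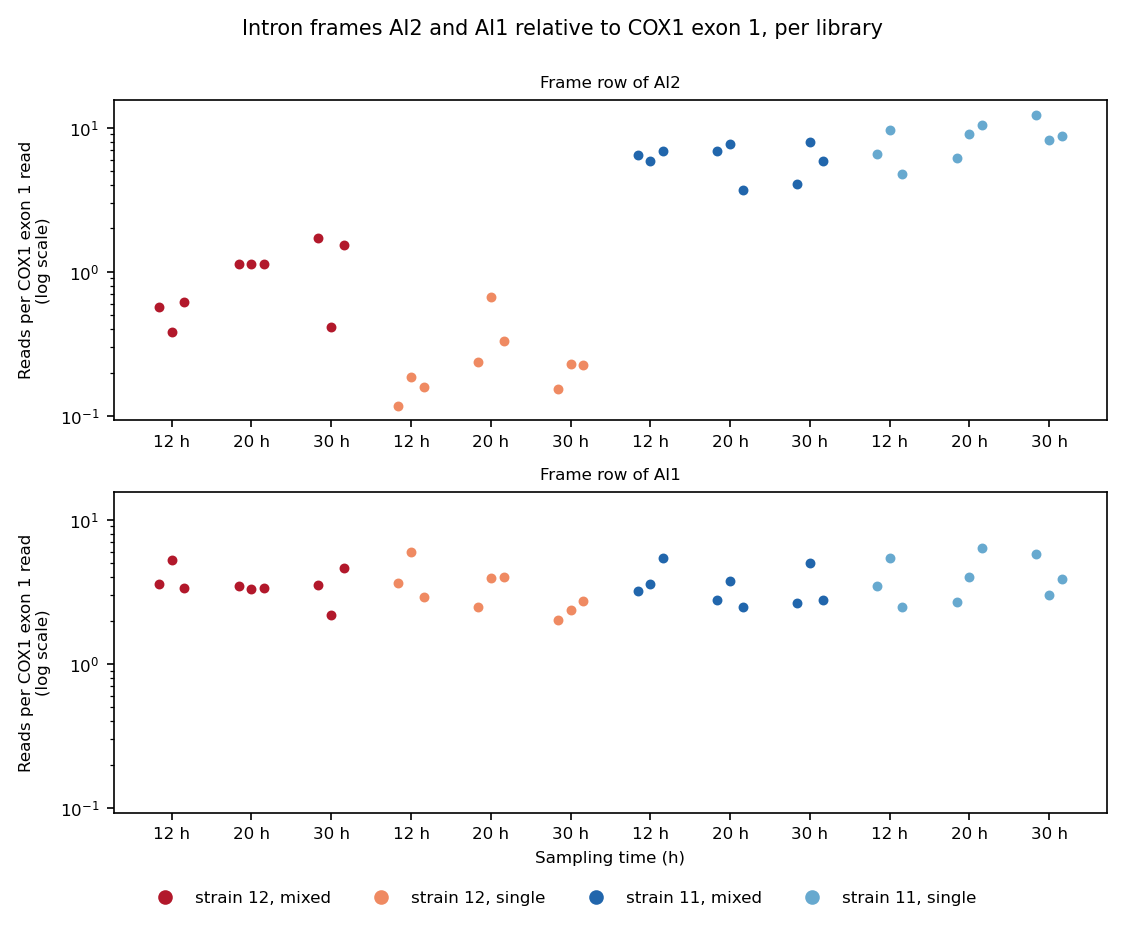
Reads of the AI2 segment (upper panel) and of the AI1 row (lower panel) per read of COX1 exon 1, per library, against sampling time in h (log scale). All libraries of strain 12 lie at or below 1.71 for AI2 and all of strain 11 at or above 3.72, while for AI1 the strains overlap.

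Within strain 12, the AI2 segment was higher in mixed than in single culture without passing the test, by 0.43, 1.64 and 2.09 on the log2 scale at 12, 20 and 30 h (edgeR adjusted p = 0.84, 0.232 and 0.443). Reads on transcripts used as marks of each strain are given beside it. The strain 11 markers YLR227W-B, YNL284C-B and YNL284C-A had 19 reads in the 9 libraries of strain 12 mixed and 0 in those of strain 12 single cultures, against 118 in strain 11 mixed and 308 in strain 11 single cultures. Over the 9 strain 12 mixed libraries the sum of these 3 markers lay between 0 and 6 reads per library. The strain 12 markers SSU1 and YHB1 had 2336 and 2253 reads in strain 12 mixed and single, against 275 and 55 in strain 11 mixed and single cultures. All these markers were taken from an earlier analysis of these data, so their separation of the strains is not independent evidence. The part of cells or RNA of the other strain in the AI2 level of the mixed cultures was not tested.

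Q0255 was the other member that was lower in strain 12. In mixed cultures at 12 h it had 0, 1 and 0 reads in strain 12 and 3, 17 and 34 reads in strain 11, a ratio of strain 12 to strain 11 per gene read of 0.0244 (exact 95% interval 0.000606 to 0.142, from reads pooled over 3 libraries and covering counting error only; edgeR adjusted p = 0.00434). In single cultures at 12 h it had 1, 1 and 0 reads in strain 12 and 34, 46 and 19 in strain 11, a ratio of 0.0270 (interval of the same kind 0.00322 to 0.100, edgeR adjusted p = 0.00100). At 30 h in single cultures strain 12 had 0 reads in all 3 libraries, against 17, 16 and 0 reads in strain 11 (edgeR adjusted p = 0.0221). From pooled reads, with 3 reads over the group as the floor, Q0255 was at least 9.05-fold lower in strain 12. This bound covers counting error in strain 12 only, not the spread between libraries. The groups did not overlap at 12 h, while at 30 h a library of strain 11 was also at 0, and the call at 30 h was lost without any of the 3 strain 12 single libraries and without strain 11 single replicates 1 or 2. Its neighbour COX2, with which it shares the 19 bases shown above, did not pass in any comparison of the strains.

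The result for ATP6 between the strains also depended on which libraries were fitted. In mixed cultures at 12 h it had 163, 932 and 18.8 CPM in strain 12 and 37.7, 127 and 83.2 CPM in strain 11, which overlapped, with a log2 fold change of 2.22 ± 0.78 (edgeR adjusted p = 0.086). Fitted on the 6 libraries of this comparison alone it was higher in strain 12, by 2.20 ± 0.62 (edgeR adjusted p = 0.0195). Libraries with the same number deviated together here, and with the replicate number as a block in the same 6 libraries ATP6 was higher by 1.32 ± 0.34 (edgeR adjusted p = 0.00158). AI2 and Q0255 passed in these fits as well.

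Over time few members changed, although many nuclear genes did between 12 and 20 h. Q0255 fell in strain 11 mixed cultures to 0, 0 and 1 reads at 20 h, against 3, 17 and 34 reads at 12 h (edgeR adjusted p = 0.0386; 2.72% of all genes fell). This call was lost without replicates 2 or 3 at 12 h or any library at 20 h. BI2, a COB maturase frame, fell in strain 12 single cultures with 24.2, 197 and 47.4 CPM at 20 h against 86.1, 169 and 584 CPM at 12 h (-1.95 ± 0.76, edgeR adjusted p = 0.0489; 12.6% of all genes fell). Its groups overlapped, and the call was lost without replicate 3 at 12 h or replicates 1 or 3 at 20 h, with DESeq2 (adjusted p = 0.138), with limma and with the libraries of the comparison alone (edgeR adjusted p = 0.0637). Most reads of the BI2 row lie on COB exon 1, and on its own segment, with 0, 2 and 0 reads at 20 h against 3, 1 and 9 at 12 h, the change was -0.96 (edgeR adjusted p = 0.662). On its own segment AI2 rose in strain 12 mixed cultures between 12 and 20 h, by 1.97 ± 0.59 (edgeR adjusted p = 0.0104; 23.8% of all genes passed in that fit), while the gene row did not pass (1.13, edgeR adjusted p = 0.128).

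The other time contrasts had no call. Between 12 and 20 h edgeR called 0 of 16 members in strain 12 mixed and in strain 11 single cultures, where 23.8 and 28.8% of all genes passed. Between 20 and 30 h it called 0 in strain 12 mixed, strain 12 single, strain 11 mixed and strain 11 single cultures, where 0.0272, 0.627, 0 and 0.708% of all genes passed. At an unadjusted p under 0.05 there was 1 member in strain 12 mixed cultures in each interval and 0 in the other 4 contrasts, and DESeq2 called 0 in all 6. Of all 3670 genes, 1289 and 202 had such a p in strain 12 mixed cultures. Between 12 and 20 h 1446 had it in strain 11 single cultures. Between 20 and 30 h 321, 231 and 463 had it in strain 12 single, strain 11 mixed and strain 11 single cultures.

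The nuclear genes that serve the mitochondrial genome had list medians nearer to 0 than the median of the members in strain 11. They were taken from 4 lists. For synthesis, processing and decay of mitochondrial RNA 16 of 22 genes were tested, for translational activators 7 of 18, for maintenance of mitochondrial DNA 6 of 10, and for the nuclear subunits of complexes III, IV and V 28 of 33. In strain 11 mixed against single culture, the list medians at 12 h were -0.37, -0.62, -0.35 and -0.20, those at 20 h 0.04, 0.32, -0.27 and -0.55, and those at 30 h -0.22, -0.07, -0.28 and -0.47, beside medians of -0.05, -0.02 and -0.02 over all genes. At 30 h edgeR called 0 genes of each list, when it called 11 of 16 mitochondrial members.

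At 12 h NCA3, a gene that acts on the ATP6 and ATP8 messenger, rose in mixed cultures of strain 11 to 558 ± 91.4 CPM, against 124 ± 69.2 CPM in single cultures (SD, n = 3 each; log2 fold change 2.12, edgeR adjusted p = 1.07e-05), 1 of 16 genes of its list, when 5.26% of all genes rose. MSS51, the translational activator of COX1, had 126 ± 6.11 CPM in mixed and 332 ± 109 CPM in single cultures (-1.38, edgeR adjusted p = 0.0142), 1 of 7 genes of its list. ABF2, which packs mitochondrial DNA, had 182 ± 27.9 and 418 ± 155 CPM (-1.21, edgeR adjusted p = 0.0299), 1 of 6 genes of its list. At the same time 1 of 28 nuclear subunits fell, COX4, when 3.35% of all genes fell, a share near that of the list. At 20 h 3 of 28 did, when 1.88% of all genes and 2 of 16 members fell, all 3 of ATP synthase: ATP7 (-2.48), TIM11 (-2.18) and ATP15 (-3.34), with edgeR adjusted p-values of 0.00752, 0.0182 and 0.00881. Elsewhere in these comparisons, ILV5, an enzyme of branched-chain amino acid synthesis that also binds mitochondrial DNA, rose in strain 12 mixed against single cultures at 12 h (1.40, edgeR adjusted p = 0.00506). It was 1 of 6 genes of its list, when 59 of all 3670 genes rose. ACO1, the aconitase with a part in DNA maintenance, was higher in strain 12 than in strain 11 in single cultures at 30 h (1.41, edgeR adjusted p = 0.0425), 1 of 6 genes of its list, when 0.163% of all genes were higher. No other gene of the 4 lists passed in a comparison of cultures or strains.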

How the data were processed

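The mRNA of sorted strain 12 and strain 11 cells was amplified and sequenced on a SOLiD instrument with reads of 75 bases. Yeast mitochondrial messengers carry no poly(A) tail, and how the amplification was primed is not given in the sources used here. Alignment by the authors was to sacCer2, and their processing notes name Cufflinks 1.3.0 and Cuffdiff. LifeScope is named in the exon tables, while its version and any use of strand are in none of the sources used here. The authors deposited whole-number read counts per gene and per exon and an RPKM per gene. Recomputed RPKM values equalled the deposited ones within 0.011 for 100% of genes in each library.

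All 36 libraries were fitted together with edgeR 4.0.16 (quasi-likelihood test, with limma 3.58.1 under R 4.3.3), taking the deposited counts of the 3670 genes that filterByExpr kept (3047 were not), with TMM factors (0.888 to 1.08) and a mean per group. The common dispersion was 0.0833 (prior degrees of freedom 32.0). Genes passed at a p of at most 0.05 after Benjamini-Hochberg adjustment over all genes tested. These functions were first run on simulated data with planted changes. Own segments are exon segments overlapping other genes by less than 10% of their length or, for genes with none (AI4, AI5_ALPHA and BI4 among those tested), the segments that no other gene lists with the same bounds. Fold changes against groups with 0 reads were set as bounds from a floor of 3 reads over the group. The depth was 35400 to 530376 gene reads per library, of which 112 to 7452 (median 322) lay on the mitochondrial genome with each segment counted once, and this number limits the precision.

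The members and the 4 lists of nuclear genes were chosen with earlier results of these data known. Values are given for every member with a mean of at least 5 reads per library or an adjusted p of at most 0.05 in a contrast, and list genes are named for at most the 3 smallest adjusted p-values per list. COX4, which that rule does not name, and the 3 strain 11 and 2 strain 12 marker genes come from outside it. The marker genes were taken from an earlier analysis of these data.

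Replicates carry the same numbers in every group. Deviations from the group means correlated by over 0.1 for all 3 numbers only between the strains at 12 h, in mixed (0.196, 0.104 and 0.173) and in single cultures (0.453, 0.288 and 0.380). This pairing comes from the correlations, since the labels do not say what a number shares.

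Alternatives were DESeq2 1.42.0, RLE factors, normalisation on nuclear genes, no filter, own segments, limma on log2(RPKM + 1) and log2(RPKM + 0.1), a least log2 fold change of 1, the libraries of each comparison alone with and without a replicate block, and each library left out in turn. The sequences shown come from RefSeq R64, since sacCer2 itself was not used here.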

Additional observations from a re-analysis of the deposited data

Results flagged for a closer look

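The response of the AI2 segment to mixed culture at 30 h differed between the strains by the interaction test. On its own segment the response of strain 12 minus that of strain 11 was 5.01 ± 0.95 on the log2 scale (edgeR adjusted p = 0.00370). It was made up of 36, 19 and 23 reads in strain 12 mixed against 6, 3 and 5 in strain 12 single cultures, and of 57, 56 and 134 reads in strain 11 mixed against 664, 1031 and 132 in strain 11 single cultures. Per M gene reads these were 247, 144 and 440 in strain 12 mixed against 62.0, 44.6 and 67.5 in strain 12 single cultures, and 662, 436 and 1360 in strain 11 mixed against 8021, 7340 and 1998 in strain 11 single cultures. On that scale mixed and single libraries overlapped in neither strain. COX1 exon 2, which the segment holds, alone had 9, 3 and 9 reads in strain 12 single and 8, 16 and 6 in strain 12 mixed cultures. The segment reads of strain 12 single cultures were no more than those of this exon, so they may all lie on it. On the gene row the interaction was 3.25 with an edgeR adjusted p of 0.113. The strain 11 marker genes had 0 to 2 reads per library in strain 12 mixed cultures at 30 h and 0 in strain 12 single cultures, and their part in this difference was not tested.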

How the results depend on the processing

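Every called member kept its direction under every alternative that gave a value. Members without a call did not in strain 12 at 20 h and in the interaction at 12 h, for example. Low counts limit these results: the fewest mitochondrial reads, 112 in strain 12 single replicate 1 at 20 h, leave genes such as COX2, OLI1 and Q0255 with few or 0 reads. Counts of calls are summed over the 3 times, or over both intervals. For strain 11, mixed against single, the 15 calls became 34 with no filter on low counts, 8 with DESeq2, 1 and 0 with limma on log2 RPKM (pseudocount 1 and 0.1), 30 with the libraries of each comparison alone, and 5 to 17 with a library left out (5 without strain 11 mixed replicate 2 and 6 without single replicate 2, both at 30 h). For strain 12 the 0 calls became 1 with no filter and 0 to 4 with a library left out. Over all genes its 95, 47 and 8 calls became 107, 80 and 22 with no filter. For the strains in mixed cultures 2 calls became 4 with no filter, 1 with limma at either pseudocount and 4 with the libraries of each comparison alone (2 to 2 with a library left out). Over all genes the 185, 7 and 33 calls became 212, 22 and 50 with no filter. With the libraries of each comparison alone they became 353, 107 and 25. Limma gave 102, 0 and 5 (pseudocount 1) and 87, 0 and 7 (0.1). In single cultures 5 became 10 with no filter, 3 with limma at either pseudocount and 8 with the libraries of each comparison alone (4 to 5). Over all genes the 38, 21 and 19 calls there became 49, 35 and 32 with no filter. With the libraries of each comparison alone they became 17, 10 and 23. Limma gave 21, 56 and 12 (pseudocount 1) and 22, 58 and 11 (0.1). The interaction had 0 calls, 10 with no filter, 1 on own segments and 2 with the libraries of each comparison alone (0 to 0). Over all genes it had 43, 3 and 1 calls in the main fit and 46, 5 and 23 with no filter. On own segments it had 46, 3 and 2, and with the libraries of each comparison alone 32, 4 and 4. Over time, strain 11 mixed had 1 call, 0 with DESeq2 and limma, and 4 with the libraries of each comparison alone (0 to 1). Strain 11 single had 0, 3 with no filter and 1 with the libraries of each comparison alone (0 to 0). Strain 12 mixed had 0, 3 with no filter, 1 on own segments and 1 with the libraries of each comparison alone (0 to 1). Strain 12 single had 1, 4 with no filter, and 0 on own segments, with DESeq2, with limma and with the libraries of each comparison alone (0 to 3). Over all genes, 20 against 12 h had 212, 1056, 873 and 945 calls in the main fit, in the order of groups just given. With the libraries of each comparison alone it had 495, 978, 1088 and 666. Counts over all genes with a library left out are not given here. The cause of these moves was not tested.

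With the replicate number as a block, on the libraries of each comparison alone, the counts were 30 for strain 11 mixed against single, 0 for strain 12, 3 and 8 for the strains in mixed and single cultures, 2 for the interaction, and 3, 1, 1 and 0 over time for strain 11 mixed, strain 11 single, strain 12 mixed and strain 12 single cultures. Over all genes the block gave 550, 188 and 86 calls at 12, 20 and 30 h for strain 11 mixed against single. It gave 618, 55 and 17 for the strains in mixed and 44, 26 and 27 in single cultures. In the paired comparisons, the strains at 12 h, the fits of the same libraries with and without the block made the same member calls.

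Counting each segment once, or the 8 protein genes alone, leaves out reads by construction, so a lower share there is not a test of the result. The share of mitochondrial reads was lower by more than the replicate SD with each segment counted once in strain 12 mixed and single at 30 h (0.263 and 0.242%) and in strain 11 mixed at 12 and 20 h (0.479 and 0.291%). On the 8 protein genes alone it was 0.186% in strain 12 mixed at 30 h, 0.339 and 0.203% in strain 12 single at 12 and 30 h, 0.207, 0.124 and 0.111% in strain 11 mixed and 0.454, 0.391 and 0.541% in strain 11 single cultures at 12, 20 and 30 h. With a library left out it ranged at 12, 20 and 30 h over 0.271 to 0.835, 0.468 to 0.986 and 0.422 to 0.631% in strain 12 mixed, 0.692 to 1.35, 0.392 to 1.24 and 0.493 to 0.633% in strain 12 single, 0.642 to 0.898, 0.472 to 0.542 and 0.272 to 0.468% in strain 11 mixed, and 1.26 to 2.56, 1.00 to 1.99 and 1.67 to 2.64% in strain 11 single cultures.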
